A study of Mus musculus with 96 samples.

Results

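The Wnt pathway was followed in hippocampal chromatin through 49 genes taken by name: 19 Wnt ligands, 12 receptors (the Frizzled genes with Lrp5 and Lrp6), 8 intracellular transducers, 4 transcription factors and 6 secreted inhibitors. A peak belonged to the set when its deposited closest-gene symbol was one of these names. The rule itself uses no measured value, although the list was drawn up with earlier results of these data known. The set held 134 of the 22815 consensus peaks and 48 of the 49 genes. Wnt8a had no peak. Promoter peaks, those that the authors' annotation places in any promoter class, were kept apart from the others, which are called distal here whether intergenic, intronic or exonic.

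Wnt proteins are secreted lipid-modified ligands that bind Frizzled receptors and the co-receptors Lrp5 and Lrp6 on neighbouring cells. Without a ligand, a complex of Axin, Apc and Gsk3b marks β-catenin (Ctnnb1) for degradation. With a ligand, Dishevelled proteins (Dvl1, Dvl2, Dvl3) block that complex, and β-catenin acts with Lef1 and the Tcf factors on target genes such as Axin2. In the hippocampus the pathway is known for its part in synapse formation and in the renewal of granule neurons, and many Wnt genes are textbook targets of Polycomb repressive complex 2 (PRC2).

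The samples were chromatin immunoprecipitation sequencing libraries from hippocampi of male C57BL/6N mice, 6 months old. NeuN, an antigen of neuronal nuclei, was used to sort nuclei into a NeuN+ and a NeuN- fraction. The 4 genotypes were wild type (WT), Mutyh-/-, Ogg1-/- and their combination (Mutyh-/- x Ogg1-/-, DKO). Both genes encode DNA glycosylases of base excision repair. Each sample pooled hippocampi of several animals of a genotype, and the NeuN- fraction holds mostly glia with other cell types. Antibodies were raised against H3K4me3, a mark of active promoters, against H3K27me3, the mark that PRC2 sets, and against the PRC2 subunit Suz12. With 3 replicates per genotype there were 12 libraries for each antibody and fraction, and 72 in all.

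The first 5 sequences are promoters of genes in the chromatin states that the set fell into. The sixth sequence is the distal window with the smallest adjusted p among the member peaks, though not the largest fold change. The promoter sequences are the 250 bases before the start of transcription, read 5′ to 3′ on the strand of the gene from RefSeq's GRCm38.p6 tables, with every CG in capitals. Dvl1 (plus strand, chr4:155847152-155847401) had H3K4me3 in both fractions and no other mark. Wnt7a (minus strand, chr6:91411354-91411603) had H3K4me3 in NeuN+ and H3K27me3 in NeuN-. Wnt2b (minus strand, chr3:104961710-104961959) had all 3 in NeuN+, and Tcf7l1 (minus strand, chr6:72789046-72789295) had H3K27me3 in NeuN+ and H3K4me3 in both. Wnt3 (plus strand, chr11:103773925-103774174) had H3K27me3 and Suz12 in NeuN+, H3K27me3 in NeuN- and no H3K4me3 in either. These marks are those of any promoter peak of the gene, and the printed stretch need not lie in the peak. The Dvl1 stretch lay outside both H3K4me3 windows, and the Wnt3 stretch outside both H3K27me3 windows. The Wnt7a stretch lay outside its H3K27me3 window. The Axin2 distal window is 300 bases in the middle of a peak (plus strand, chr11:109011818-109012117).
Dvl1: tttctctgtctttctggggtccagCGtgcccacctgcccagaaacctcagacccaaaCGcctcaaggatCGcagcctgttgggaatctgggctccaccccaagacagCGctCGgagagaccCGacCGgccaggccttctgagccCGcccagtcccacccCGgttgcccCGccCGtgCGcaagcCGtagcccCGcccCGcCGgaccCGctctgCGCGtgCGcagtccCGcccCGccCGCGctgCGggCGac
Wnt7a: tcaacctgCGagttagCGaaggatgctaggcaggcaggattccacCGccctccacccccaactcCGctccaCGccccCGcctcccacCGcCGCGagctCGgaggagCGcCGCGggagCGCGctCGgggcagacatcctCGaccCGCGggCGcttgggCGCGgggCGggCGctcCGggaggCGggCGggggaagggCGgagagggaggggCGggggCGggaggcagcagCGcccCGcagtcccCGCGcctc
Wnt2b: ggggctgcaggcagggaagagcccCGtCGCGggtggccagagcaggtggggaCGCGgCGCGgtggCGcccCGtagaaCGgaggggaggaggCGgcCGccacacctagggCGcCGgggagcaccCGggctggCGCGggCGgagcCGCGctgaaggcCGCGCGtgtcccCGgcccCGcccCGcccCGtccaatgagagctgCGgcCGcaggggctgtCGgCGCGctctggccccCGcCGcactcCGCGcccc
Tcf7l1: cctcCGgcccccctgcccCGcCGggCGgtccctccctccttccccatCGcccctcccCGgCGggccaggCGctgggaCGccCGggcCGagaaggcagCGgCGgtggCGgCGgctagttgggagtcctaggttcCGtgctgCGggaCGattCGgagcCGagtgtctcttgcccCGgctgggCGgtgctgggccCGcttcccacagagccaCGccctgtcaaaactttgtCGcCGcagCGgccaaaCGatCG
Wnt3: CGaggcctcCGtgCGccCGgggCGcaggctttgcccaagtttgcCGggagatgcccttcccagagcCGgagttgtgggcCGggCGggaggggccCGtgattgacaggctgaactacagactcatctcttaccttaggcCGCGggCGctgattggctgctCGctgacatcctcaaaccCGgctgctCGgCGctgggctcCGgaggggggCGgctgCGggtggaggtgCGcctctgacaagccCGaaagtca
Axin2 distal window: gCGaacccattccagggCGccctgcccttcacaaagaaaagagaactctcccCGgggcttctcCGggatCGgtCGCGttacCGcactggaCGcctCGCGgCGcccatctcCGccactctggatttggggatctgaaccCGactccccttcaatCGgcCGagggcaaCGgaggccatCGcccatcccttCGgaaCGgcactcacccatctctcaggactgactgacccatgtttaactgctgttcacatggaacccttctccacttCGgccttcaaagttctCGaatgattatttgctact

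These promoters were dense in CG, with 26 in Dvl1, 34 in Wnt7a, 36 in Wnt2b, 29 in Tcf7l1 and 22 in Wnt3. Of the 49 genes, 35 matched a RefSeq promoter window. Their median was 24 CG in 250 bases, against 6 over all 32851 promoters, and 88.6% of them held at least 10, against 37.8% of all. By the marks of their genes, the median was 22.5 in 14 promoters with H3K4me3 and no PRC2 mark. It was 28 in 9 with H3K4me3 in NeuN+ and H3K27me3 in NeuN-, and 14 in 7 with a PRC2 mark and no H3K4me3. Many of these windows lay outside the marked peak, as at Wnt6, whose H3K27me3 peak in NeuN- was 11197 bp from the start. The medians thus describe the RefSeq promoters of these genes and not the marked chromatin. The Tcf/Lef motif, searched as CTTTGAT or CTTTGAA on both strands, was in the windows of Wnt11 and Dkk1, 5.71% of the 35, against 7.48% of all promoters.

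The deposited value of a peak is its read number divided by a factor of its library, over a window of 401 bp, so levels compare between peaks of a table and not between tables. Reads in peaks per library ran from 96023 to 548706 for H3K4me3 NeuN+, from 23794 to 52344 for H3K27me3 NeuN+, from 6652 to 33035 for Suz12 NeuN+, from 39320 to 120004 for H3K4me3 NeuN-, from 19132 to 78250 for H3K27me3 NeuN- and from 11887 to 66148 for Suz12 NeuN-. Reads in peaks do not measure the depth at a typical peak. In H3K27me3 NeuN-, Ogg1-/- replicate 2 had the most, 78250, but a median of 1 read per peak and 40.8% of peaks without a read. WT replicate 1 had the fewest, 19132, with a median of 3 and 25.8% of peaks without a read. H3K4me3 marked the promoters of 9 of 10 neuronal marker genes in NeuN+ and 0 of 10 in NeuN-. Of 15 glial and endothelial markers, 2 had an H3K4me3 promoter peak in NeuN+ and 1, Olig1, in NeuN-. By list, the NeuN- count was 0 of 4 for astrocytes, 1 of 6 for the oligodendrocyte lineage, 0 of 3 for microglia and 0 of 2 for endothelium, so most defining glial markers had no H3K4me3 promoter peak in the fraction that should hold glia. Of the deleted genes, Mutyh had 0 peaks and Ogg1 had 1, an H3K4me3 promoter peak in NeuN+ with values of 15.4, 5.85 and 10.8 in WT and of 17.9, 6.15 and 13.8 in Ogg1-/-. A promoter mark says nothing of a deletion elsewhere in the gene and does not check the labels.

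Promoter marks were spread unequally over the roles of the genes. In NeuN+ nuclei H3K4me3 was found at the promoters of 38 of the 49 genes: all 8 intracellular transducers, 11 of 12 receptors, 13 of 19 ligands, 4 of 6 secreted inhibitors and 2 of 4 transcription factors. Fzd2 was the receptor without it. PRC2 marks were found in every role but the transducers. H3K27me3 was at 14 promoters in NeuN+, those of Wnt1, Wnt2b, Wnt3, Wnt3a, Wnt6, Wnt8b and Wnt10b, of Fzd2 and Fzd9, of Lef1, Tcf7l1 and Tcf7l2, and of the inhibitors Dkk1 and Sfrp5, with 0 of 8 transducers. Suz12 was at 13 promoters in NeuN+, again with 0 transducers, and 10 of its 13 genes also carried H3K27me3.

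In NeuN- nuclei the picture narrowed for H3K4me3 and widened for H3K27me3. H3K4me3 was at 12 promoters, which included 5 transducers (Axin2, Apc, Gsk3b, Dvl1, Dvl2), the receptor genes Fzd1, Fzd2, Fzd7 and Lrp6, the factors Tcf7l1 and Tcf7l2, and Wnt6 as the one ligand. H3K27me3 was at 18 promoters, 13 of them ligands (Wnt3, Wnt3a, Wnt4, Wnt5a, Wnt6, Wnt7a, Wnt7b, Wnt8b, Wnt9b, Wnt10a, Wnt10b, Wnt11 and Wnt16), beside Fzd10, Lef1, Dkk1, Sfrp2 and Sfrp5. Suz12 was at 0 promoters there, in a table of 312 peaks. The 2 fractions differ in depth and in the number of peaks called, so a peak missing from one fraction is a peak not called there and not a mark shown to be absent. With the promoter class cut to 1 kb from a start, the counts of genes became 37, 11 and 11 in NeuN+ for H3K4me3, H3K27me3 and Suz12, and 11, 13 and 0 in NeuN-.

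**Figure D1:**
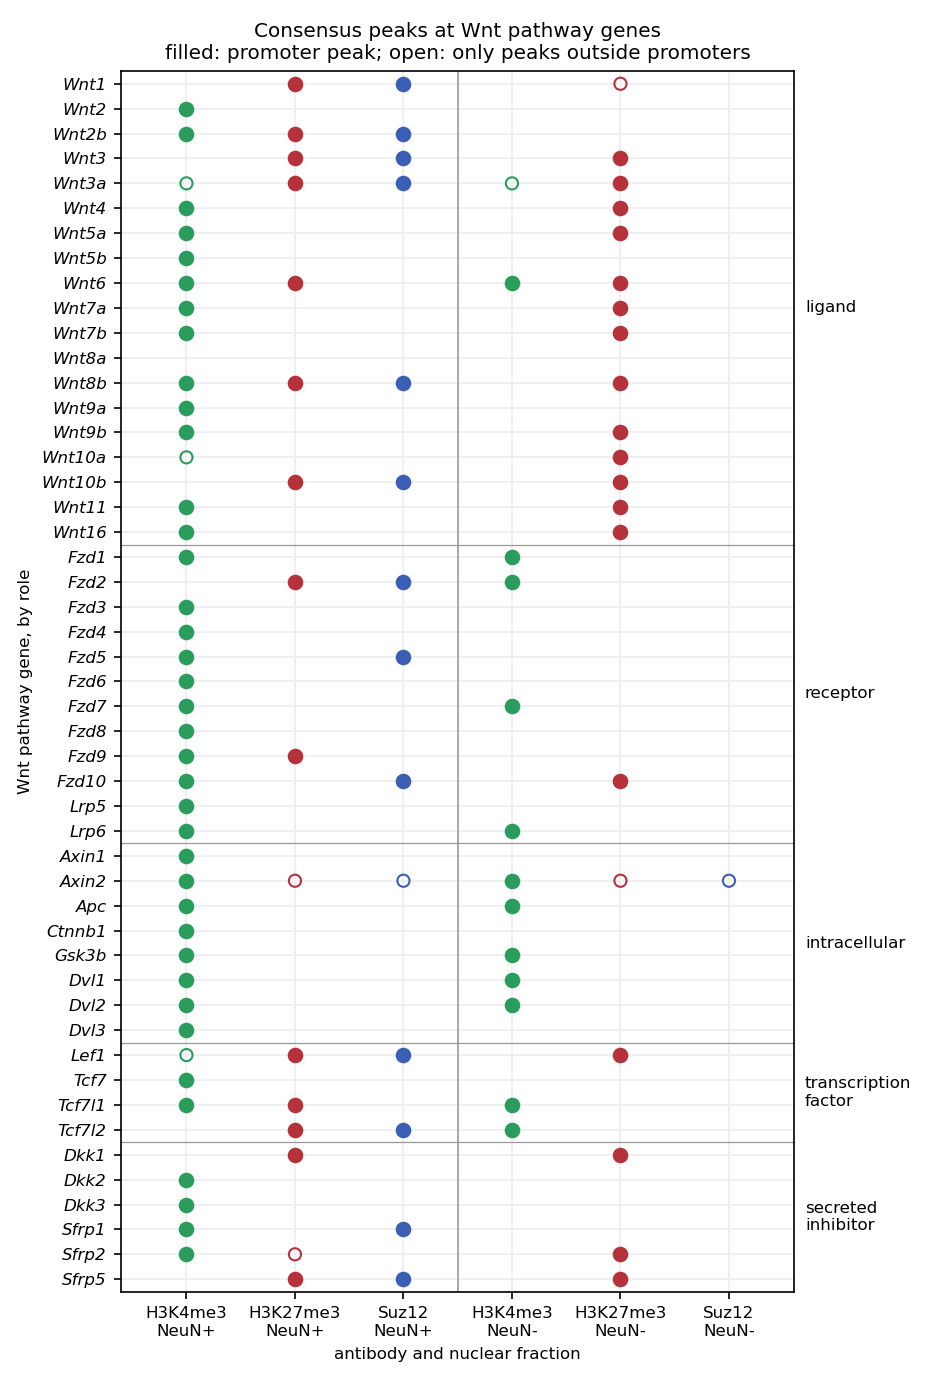
Consensus peaks at the 49 genes (rows, grouped by role) for each antibody in NeuN+ and NeuN- nuclei (columns), where a filled circle is a promoter peak and an open circle a gene with distal peaks only. H3K4me3 in NeuN+ covers 38 genes, and in NeuN- nuclei H3K27me3 covers 13 of 19 ligands while H3K4me3 covers 1.

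Of the 13 ligands with an H3K4me3 promoter in NeuN+, 9 (69.2%) had an H3K27me3 promoter in NeuN-. Of the 38 genes with an H3K4me3 promoter in NeuN+, 11 had an H3K27me3 promoter in NeuN-: Wnt4, Wnt5a, Wnt6, Wnt7a, Wnt7b, Wnt8b, Wnt9b, Wnt11, Wnt16, Fzd10 and Sfrp2. That is 28.9% of the 38 and 61.1% of the 18 genes with H3K27me3 in NeuN-. Over all genes the same pairing was seen at 418, which is 3.75% of 11160 and 53.2% of 786. Read against the H3K27me3 genes, the members were thus close to all genes (61.1% against 53.2%). As a share of H3K4me3 genes they stood further from all genes (28.9% against 3.75%). H3K4me3 was at a promoter in both fractions for 26.3% of the 38, against 26.0% of all genes. The windows of the 2 marks were 57 to 1765 bp apart between centres, with a median of 854 bp, and they overlapped at Wnt7a, Wnt7b and Wnt16.

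Wnt7a and Wnt7b, ligands known for synapse formation and for the vessels of the brain, show the 2 sides at nearly one place. The Wnt7a window for H3K4me3 in NeuN+ (chr6:91411156-91411556) had values of 33.4, 20.5 and 23.7 in WT, a mean of 25.9 ± 6.75 (SD, n = 3). The H3K27me3 window in NeuN- (chr6:91410934-91411334) had 0, 6.63 and 1.15 in WT, from 0, 8 and 1 reads. It had more in every genotype group mean of the knockouts, 5.48 ± 8.59 in Mutyh-/-, 7.25 ± 5.65 in Ogg1-/- and 9.99 ± 9.37 in DKO (SD, n = 3), with ranges that overlapped WT. At Wnt7b the H3K4me3 window (chr15:85577460-85577860) had 14.1, 12.7 and 15.1 in WT, and the H3K27me3 window 57 bp away had 0, 4.15 and 3.46. The H3K27me3 peaks of both ligands rested on few WT reads.

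Low WT reads were common in this table. Each table holds 1 set of consensus peaks for all 4 genotypes, so a peak can be in it with few or no WT reads. The 19 H3K27me3 promoter peaks of the set had a median of 9 reads over the 3 WT libraries together, and those of Wnt6, Wnt8b and Wnt11 had 3 or fewer. The 42 H3K4me3 promoter peaks in NeuN+ had a median of 51 WT reads and at least 14. Wnt16, a ligand known from bone, had the highest WT mean among the H3K27me3 promoter peaks of the set in NeuN-, 7.54 ± 3.46 (SD, n = 3), and Wnt8b at chr19:44509915-44510315 the lowest, 0.384 ± 0.666. Wnt10b had 7.21 ± 3.59, so the order at the top is within the spread.

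The reverse pairing, H3K27me3 in NeuN+ and H3K4me3 in NeuN-, was seen at Fzd2, Tcf7l1, Tcf7l2 and Wnt6, which is 28.6% of the 14 and 33.3% of the 12 genes, against 7.93% and 2.75% for all genes. Fzd2, a receptor gene, was the plainest case, since it had no H3K4me3 peak in NeuN+. Its H3K27me3 window in NeuN+ (chr11:102604852-102605252) had 7.67, 7.75 and 3.45 in WT, its Suz12 window 4.02, 16.8 and 2.68, and its H3K4me3 window in NeuN-, 76 bp from the first, 5.53, 7.88 and 7.09. Tcf7l2, whose product is known in oligodendrocytes and thalamic neurons, had Suz12 at its start in NeuN+ and H3K4me3 85 bp away in NeuN-, while its H3K27me3 promoter peak belonged to an internal start 150652 bp downstream of it. H3K27me3 was shared by both fractions at 8 genes (Wnt3, Wnt3a, Wnt6, Wnt8b, Wnt10b, Lef1, Dkk1 and Sfrp5), 57.1% of the 14 and 44.4% of the 18, against 34.4% and 45.8% for all genes.

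Within NeuN+ nuclei 8 genes had H3K4me3 together with H3K27me3 or Suz12 at a promoter: Wnt2b, Wnt6, Wnt8b, Fzd5, Fzd9, Fzd10, Sfrp1 and Tcf7l1. That is 21.1% of the 38, against 3.71% of all genes with an H3K4me3 promoter. As a share of H3K27me3 genes the members with both histone marks, 35.7%, matched the 34.3% of all genes. Wnt2b and Wnt8b had all 3, and in NeuN- nuclei Wnt6 alone had both histone marks. These are counts over the consensus peaks of all genotypes and not a state of WT nuclei: H3K27me3 had 0 WT reads at Fzd9 in NeuN+, and 1, 1 and 0 at Wnt6 in NeuN-. At Wnt2b the windows overlapped, with H3K4me3 at 24.4, 5.85 and 10.8 in WT, H3K27me3 at 13.1, 4.43 and 11.2, and Suz12 at 8.05, 12.9 and 8.05. At Tcf7l1, whose product is the Tcf factor best known as a repressor, H3K4me3 in WT was 14.1, 14.6 and 9.69 and H3K27me3 was 0, 5.54 and 6.89. A sorted fraction holds many nuclei, so 2 marks on one nucleosome and marks in different cells cannot be told apart.

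Some promoter peaks lay at internal or alternative starts. Wnt6 had 1 H3K4me3 window in NeuN+ at the RefSeq start (139 bp from its centre), and a second one that overlapped the NeuN- window 12383 bp downstream, near which its H3K27me3 windows lay (11323 bp in NeuN+ and 11197 bp in NeuN-). The Wnt8b windows with the 3 marks in NeuN+ lay 18178 to 18986 bp from the RefSeq start. These internal windows count as promoter peaks of annotated transcripts and are not at the first promoter of the gene.

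Levels of the promoter peaks also differed by role, given here as a description. In NeuN+ the median WT mean of H3K4me3 was 30.2 for transducers, 21.0 for receptors, 14.0 for ligands, 13.1 for transcription factors and 12.2 for secreted inhibitors, against 24.1 for all promoter peaks of the table. The median member stood at percentile 30.2 of these peaks. Dvl1 had the highest, with 55.3, 28.3 and 38.8 in WT, and Wnt2, a ligand of lung and heart development, the lowest, with 2.57, 7.81 and 4.31. The WT libraries of Dvl1 overlapped those of the next transducers, Apc (41.2, 23.4 and 33.4) and Dvl3 (43.7, 25.4 and 24.8), so their order is within the spread. Dvl1 was also the highest in NeuN-, with 12.4, 18.9 and 13.0, where the median member stood at percentile 51.5. Apc was the lowest there, with 5.53, 7.09 and 2.36. Both ranks in NeuN- are also within the spread, with Fzd1 at 20.7, 7.09 and 13.0 and Wnt6 at 6.91, 3.15 and 8.27.

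In NeuN+ the highest promoter levels of PRC2 marks were at a secreted inhibitor and at Lef1. Sfrp5, which codes for a secreted Frizzled-like decoy, led the H3K27me3 promoters of NeuN+ with 20.8, 12.2 and 18.1 in WT, at percentile 95.8 of promoter peaks. Fzd9 was lowest, with 0 reads in all 3 WT libraries, which does not show that the mark is absent, and 0 to 8 reads in the other 9. Lef1 led Suz12 in NeuN+, with 13.4, 21.8 and 30.9 in WT at chr3:131111027-131111427. Fzd2 was lowest there. The median member promoter peak stood at percentile 43.2 for H3K27me3 NeuN+, 32.3 for Suz12 NeuN+ and 34.4 for H3K27me3 NeuN-.

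**Figure D2:**
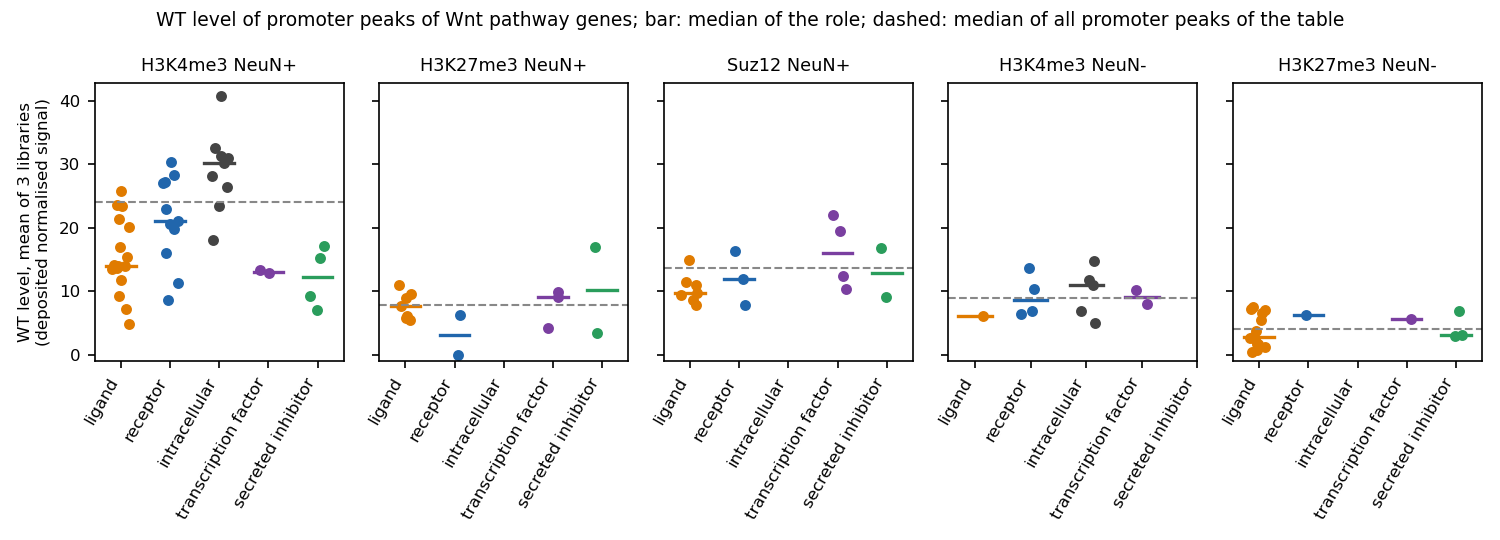
WT level (mean of 3 libraries, normalised signal, y axis) of every promoter peak of the set by role (x axis) in 5 of the tables, with the median of a role as a bar and the median of all promoter peaks as a dashed line. For H3K4me3 in NeuN+ the transducers reach a median of 30.2 and the ligands 14.0, on the 2 sides of the dashed line at 24.1.

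The knockouts were then compared with WT, to ask whether the loss of either glycosylase or of both moved these marks. A peak was called a differentially enriched region (DER) where limma gave a log2 fold change beyond 0.5 in size with an unadjusted p below 0.05. In all, 12 of the 134 peaks were DERs in at least 1 knockout, 5 of them promoter peaks. By knockout there were 11 for Ogg1-/- (6 higher, 5 lower, 8.21% of the 134, against 2.3% of all peaks). There were 3 for Mutyh-/- (2.24% against 1.99%) and 1 for DKO (0.746% against 2.1%). The counts of both single knockouts hold the Axin2 distal window in each H3K4me3 table. The 1 DER of DKO is this window in H3K4me3 NeuN-. The count of Ogg1-/- also holds Wnt3 and Wnt6 in H3K27me3 NeuN-, with 4 and 2 WT reads. Peaks so low in WT would have entered through the other genotypes, so their direction is partly fixed by how peaks were chosen. The comparisons share the WT libraries, and the difference between knockouts was not tested as such. One of the 12 peaks, the Axin2 distal window in H3K4me3 NeuN-, had an adjusted p under 0.05 over its table.

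By table, 3 of 49 member peaks were called for H3K4me3 NeuN+ (6.12%, against 2.93% of all peaks), 4 of 30 for H3K27me3 NeuN+ (13.3% against 9.39%), 1 of 17 for Suz12 NeuN+ (5.88% against 9.55%), 1 of 14 for H3K4me3 NeuN- (7.14% against 6.42%), 3 of 23 for H3K27me3 NeuN- (13.0% against 7.01%) and 0 of 1 for Suz12 NeuN- (against 17.9%). These shares rest on 1 to 4 peaks each, and those called for H3K27me3 NeuN- had 4, 2 and 1 WT reads (Wnt3, Wnt6 and Wnt8b). With an adjusted p under 0.05 in limma, the share of all peaks called was 0% for H3K4me3 NeuN+, 0.121% for H3K27me3 NeuN+, 0.129% for Suz12 NeuN+, 0.122% for H3K4me3 NeuN-, 0% for H3K27me3 NeuN- and 0% for Suz12 NeuN-. The edgeR quasi-likelihood test and DESeq2 on the recovered reads gave 0 member peaks with an adjusted p under 0.05.

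**Figure D3:**
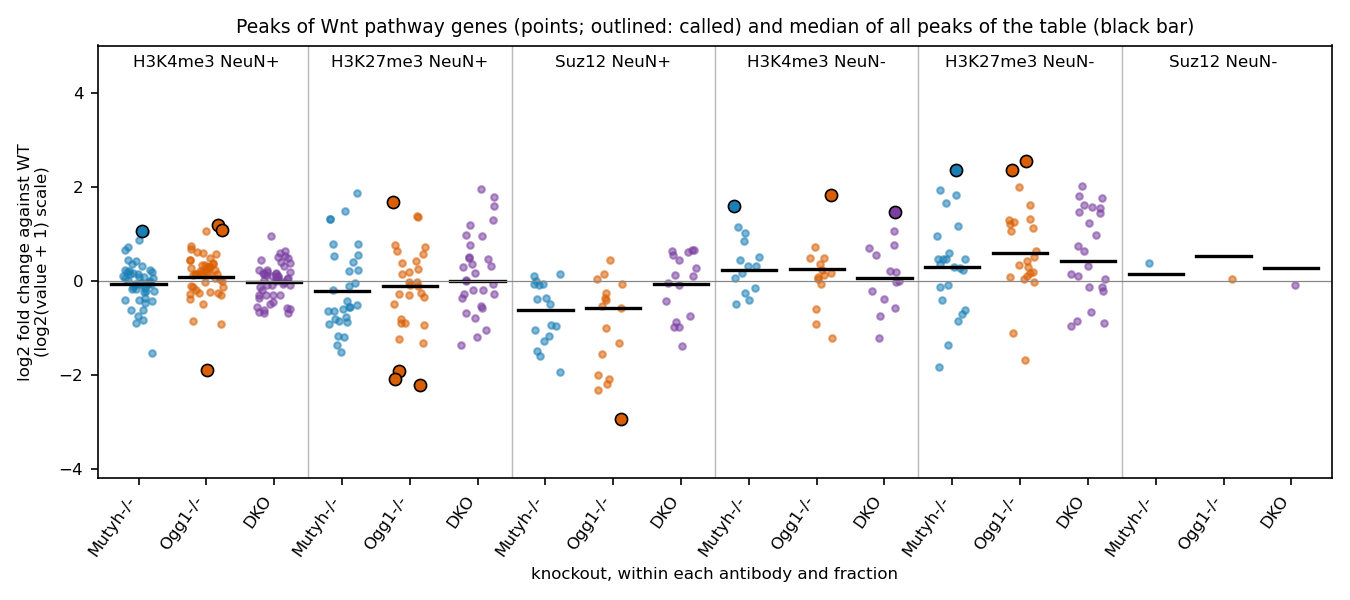
log2 fold change against WT (y axis, log2(value + 1) scale) of every member peak by knockout and table (x axis), with DERs outlined and the median of all peaks of the table as a black bar. Of the 15 outlined points, 11 belong to Ogg1-/-, and in Suz12 NeuN+ the black bars of the single knockouts lie at -0.63 and -0.57.

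Whole tables shifted in some comparisons, and the members shifted with them. In Suz12 NeuN+ the 775 peaks had a median log2 fold change of -0.63 for Mutyh-/- and -0.57 for Ogg1-/-, and that of the 17 member peaks was -0.51 and -0.57. In H3K27me3 NeuN- it was 0.29, 0.58 and 0.41 for Mutyh-/-, Ogg1-/- and DKO over all peaks and 0.34, 0.50 and 0.63 over the members. In H3K27me3 NeuN+ the Mutyh-/- medians were -0.21 over all peaks and -0.48 over the members. In H3K4me3 NeuN- the medians for Mutyh-/-, Ogg1-/- and DKO were 0.22, 0.25 and 0.05 over all peaks and 0.31, 0.15 and 0.09 over the members. The medians of H3K4me3 NeuN+ were within 0.08 of 0 over all peaks (0.08 for Ogg1-/-, where the members had 0.17). A fold change near these medians cannot be told from a shift of the table.

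Axin2 had the one member peak with an adjusted p under 0.05, outside its promoter. The peak carries the name of Axin2 only as its closest gene. It was annotated as distal intergenic, 68147 bp from the closest annotated Axin2 start (chr11:109011768-109012168). Its H3K4me3 values in NeuN- were 56.7, 28.4 and 24.8 in WT, 140, 108 and 76.4 in Mutyh-/-, 152, 101 and 125 in Ogg1-/-, and 120, 96.5 and 76.0 in DKO. The lowest knockout library lay above the highest WT library. The log2 fold change was 1.83 ± 0.35 (SE) for Ogg1-/- (limma, adjusted p = 0.0047), 1.59 for Mutyh-/- (adjusted p = 0.0214) and 1.46 for DKO (limma, adjusted p = 0.124). The Axin2 promoter peak in the same table had 19.4, 12.6 and 1.18 in WT and 19.8, 7.98 and 5.68 in Ogg1-/-, a log2 fold change of 0.35 ± 0.94 that was not called.

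The adjusted p depended on how the spread of the peak was weighed. With robust empirical Bayes in limma, it was 0.102 for Ogg1-/- and 0.325 for Mutyh-/-. It was 0.0154 for Ogg1-/- with TMM scaling, 0.999 with the edgeR quasi-likelihood test and 0.163 with DESeq2, all with the fold change above 0. Cyclic loess scaling lowered the fold change itself to 0.84. The adjusted call for Ogg1-/- was lost without WT replicate 3, at 1.61, and without Ogg1-/- replicate 1, at 1.68. It was also lost with a pseudocount of 5 and with repeat-masked peaks left out, while the fold change stayed at 1.71 and 1.83. Without WT replicate 3, 0 member peaks had an adjusted p under 0.05 in limma for any knockout.

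This window was not like the other members. It was the only place of the set with a peak in all 6 tables, and it ranked by mean value over the libraries as number 18 of 3270 in H3K4me3 NeuN- and number 12 of 12628 in H3K4me3 NeuN+. Marks of opposite kinds were thus high together at 1 window. In H3K4me3 NeuN+ 38 of 12628 windows overlapped a window in each of the other 5 tables, and 34 of them were distal. Of the other 37 in H3K4me3 NeuN-, 14 were DERs upwards for Ogg1-/-, against 95 of all 3270 peaks. Their median log2 fold change was 0.85, against 0.25 for all peaks, and 32 were above 0, against 64.3% of all peaks. For Mutyh-/- 29 were above 0 with a median of 0.52, against 0.22, and for DKO 27 with a median of 0.32, against 0.05. Soft-masked repeats made up 4.74% of the Axin2 window, and a search of GRCm38.p6 found, besides itself, a match of 77 bases at 97.4% identity on chromosome 13. Such a search cannot find copies that are missing from the assembly, so it does not show the window to be unique. Whether the signal has to do with Axin2 or comes from read mapping at windows of this kind was not tested, and the input libraries were not analysed here.

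In the other tables the same window was called for H3K4me3 NeuN+ alone. For H3K4me3 NeuN+ the values were 25.7, 31.2 and 54.9 in WT, 63.2, 82.7 and 79.7 in Mutyh-/-, 88.1, 32.8 and 188 in Ogg1-/- and 29.3, 38.6 and 115 in DKO, so that Mutyh-/- alone lay wholly above WT. The log2 fold change was 1.06 ± 0.50 (SE) for Mutyh-/- and 1.19 ± 0.50 for Ogg1-/-, both DERs with a limma adjusted p = 1.00. Without Ogg1-/- replicate 3 the latter was 0.59 and not called, and robust empirical Bayes did not call either. The Ogg1-/- call was also lost without WT replicate 1, WT replicate 2 or Ogg1-/- replicate 1, at 0.97, 1.10 and 1.14. H3K27me3 NeuN- gave 1.16, 1.61 and 1.43 for Mutyh-/-, Ogg1-/- and DKO, not called, and the WT libraries ran from 37.3 to 240. H3K27me3 NeuN+ gave 0.39 to 0.47, not called. Suz12 NeuN+ gave -0.38 for Mutyh-/-, -0.26 for Ogg1-/- and 0.11 for DKO, not called. Suz12 NeuN- gave 0.38, 0.03 and -0.10, not called, and the Mutyh-/- value turned to -0.04 under DESeq2 and to -0.22 without WT replicate 2.

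**Figure D4:**
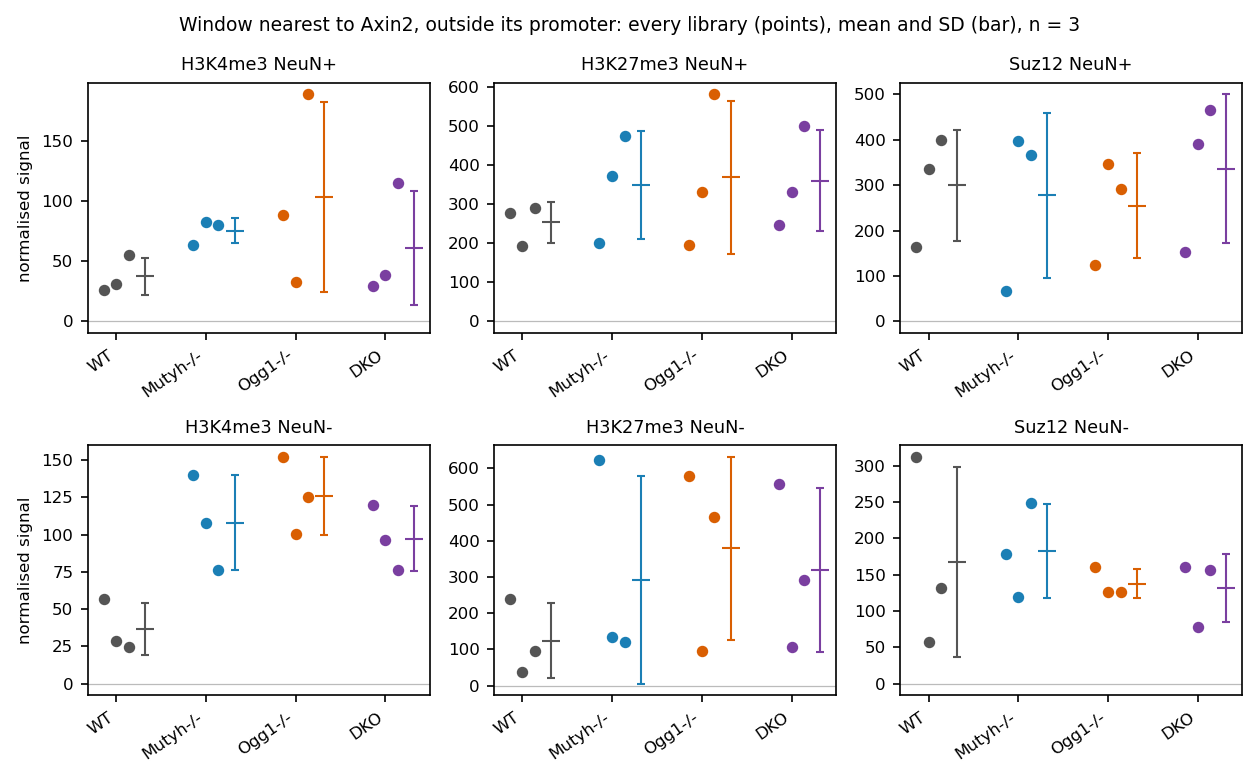
Normalised signal (y axis) of the Axin2 distal window in every library by genotype (x axis) for the 6 tables, with the mean and SD as a bar (n = 3). In H3K4me3 NeuN- all 9 knockout libraries, from 76.0 to 152, lie above the WT libraries, from 24.8 to 56.7. In H3K4me3 NeuN+ the Mutyh-/- libraries alone lie above all WT libraries, and in the other 4 tables each knockout overlaps WT.

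In NeuN- nuclei, 3 ligand promoters were DERs for H3K27me3, all higher in a knockout. Wnt3 had 4 reads over the 3 WT libraries, Wnt6 had 2 and Wnt8b had 1. Peaks this low in WT would have entered the table through the other genotypes, so their direction is partly fixed by how the peaks were chosen. It is given as a description and supports nothing. Wnt3, a ligand of the adult neurogenic niche, had values of 3.97, 0 and 1.15 in WT and 14.9, 11.4 and 9.54 in Ogg1-/- at chr11:103772117-103772517, with no overlap. The log2 fold change was 2.54 ± 1.16 (SE; limma, adjusted p = 0.963). Mutyh-/- had 11.5, 5.28 and 0, and DKO had 1.73, 0 and 0, within WT. The call was lost without WT replicate 2, WT replicate 3 or Ogg1-/- replicate 1, at 1.97, 2.52 and 2.38, and with the edgeR quasi-likelihood test and cyclic loess scaling.

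Wnt6 had 1, 1 and 0 reads in the WT libraries, or 1.32, 0.829 and 0, and 10.5, 7.35 and 4.77 in Ogg1-/-, at chr1:74782889-74783289. The ratio of Ogg1-/- to WT was 11.0, with an exact 95% counting interval of 2.75 to 96.2 that covers counting error only, and the limma log2 fold change was 2.34 ± 1.15 (SE; adjusted p = 0.963). Its groups did not overlap for Ogg1-/-, but Mutyh-/- (11.5, 13.7 and 0) and DKO (14.7, 0 and 5.68) did overlap WT. Leaving out any of WT replicate 2, WT replicate 3 or the Ogg1-/- replicates lost the call, at 2.00 to 2.60. A pseudocount of 5, cyclic loess scaling and edgeR with the deposited factors lost it too.

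Wnt8b, a ligand known from the embryonic hippocampal primordium, had 0, 0 and 1.15 in WT and 11.5, 4.22 and 3.47 in Mutyh-/- at chr19:44509915-44510315. From 1 WT read the ratio was 18.8, with an exact 95% counting interval of 2.99 to 783, and the limma log2 fold change was 2.36 ± 1.13 (SE; adjusted p = 0.998). The call was lost without WT replicate 1, WT replicate 2 or Mutyh-/- replicate 1, at 2.18, 2.18 and 1.90, and with the edgeR quasi-likelihood test. It was also lost in a fit of WT and Mutyh-/- alone and with the lowest 25% of peaks left out. The median of all peaks of this table was 0.58 for Ogg1-/- and 0.29 for Mutyh-/-.

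In NeuN+ nuclei, the DERs of H3K27me3 were distal and called for Ogg1-/- alone, and 3 of the 4 were lower. Near Sfrp2, which codes for a secreted inhibitor, the peak at -2350 bp from the start (chr3:83763571-83763971) had 9.86, 9.96 and 9.48 in WT and 0, 3.14 and 2.06 in Ogg1-/-, with no overlap. The log2 fold change was -2.21 ± 0.92 (SE; limma, adjusted p = 0.983), and the Mutyh-/- libraries (4.06, 4.42 and 7.99) also lay below WT without being called. Without Ogg1-/- replicate 1 it was -1.60 and not called. In intron 3 of Tcf7l2 (chr19:55746499-55746899) the values were 6.57, 13.3 and 10.3 in WT and 0, 4.18 and 2.06 in Ogg1-/-, again without overlap, at -2.09 ± 0.92 (limma, adjusted p = 0.983). The call was lost without WT replicate 2, WT replicate 3 or Ogg1-/- replicate 1, at -1.88, -2.05 and -1.43.

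Lef1, which codes for a β-catenin partner, had 6 distal H3K27me3 peaks in NeuN+ beside its promoter peak, and its DERs went both ways. In intron 3 (chr3:131161651-131162051) the WT values were 0, 2.21 and 12.1 and those of Ogg1-/- 13.9, 4.18 and 16.4, which overlap, at 1.67 ± 0.83 (limma, adjusted p = 0.983). Upstream, at chr3:131067760-131068160, a peak named after its values were seen because it completes the 4, WT had 7.67, 19.9 and 5.17 and Ogg1-/- 3.96, 3.14 and 0, at -1.92 ± 0.98, a call that robust empirical Bayes did not make. The intron 3 call was lost with robust empirical Bayes, a pseudocount of 5, the edgeR quasi-likelihood test and DESeq2, and without WT replicate 1, where it was 0.77. It was lost too without WT replicate 2, Ogg1-/- replicate 1 or Ogg1-/- replicate 3, at 1.61, 1.45 and 1.34, and in a fit of WT and Ogg1-/- alone. Another Lef1 peak was a DER for H3K4me3 in NeuN+, at chr3:130946073-130946473, with 11.6, 7.81 and 15.1 in WT and 1.19, 0 and 14.6 in Ogg1-/-, at -1.90 ± 0.85 (limma, adjusted p = 1.00). Its Ogg1-/- libraries split, and without Ogg1-/- replicate 2 it was -1.05 and not called. It also lost the call without WT replicate 1, WT replicate 3 or Ogg1-/- replicate 1, at -1.87, -1.70 and -1.62, and with a pseudocount of 5, the edgeR quasi-likelihood test and DESeq2.

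Tcf7 had the one promoter DER of H3K4me3 in NeuN+ (chr11:52282944-52283344). The gene codes for a Tcf factor of T cells. WT had 11.6, 5.85 and 22.6, Mutyh-/- 18.5, 27.6 and 29.8, Ogg1-/- 33.3, 14.4 and 34.6, and DKO 11.3, 24.9 and 18.2. Every knockout overlapped WT. The log2 fold change for Ogg1-/- was 1.07 ± 0.52 (SE; limma, adjusted p = 1.00). Leaving out either of WT replicates 1 and 2, of Mutyh-/- replicates 2 and 3 or of Ogg1-/- replicates 1 and 3 lost the call, and without WT replicate 2 it was 0.63. A fit of WT and Ogg1-/- alone also lost the call.

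For Suz12 in NeuN+ the one DER was the promoter of Fzd5 (chr1:64737208-64737608), a receptor gene. WT had 13.4, 12.9 and 22.8, Ogg1-/- 0, 9.42 and 0, with no overlap, at -2.95 ± 1.20 (SE; limma, adjusted p = 0.899). The call was lost without WT replicate 3, Ogg1-/- replicate 1 or Ogg1-/- replicate 3, at -2.69, -2.38 and -2.38, and with the edgeR quasi-likelihood test. The table's median for Ogg1-/- was -0.57. H3K4me3 at the same promoter was 19.3, 19.5 and 20.5 in WT and 17.6 ± 8.94 (SD, n = 3) in Ogg1-/-. In this table replicate 1 was the lowest library of its genotype at the Axin2 window in all 4 genotypes (164, 67.2, 125 and 153 in WT, Mutyh-/-, Ogg1-/- and DKO). Same-numbered samples deviated together for Mutyh-/- in this table, and with the number as a block 6 of the 17 member peaks were DERs instead of 1. The share of all peaks called with the block is not given here. This rise can therefore not be told from a rise over the whole table.

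**Figure D5:**
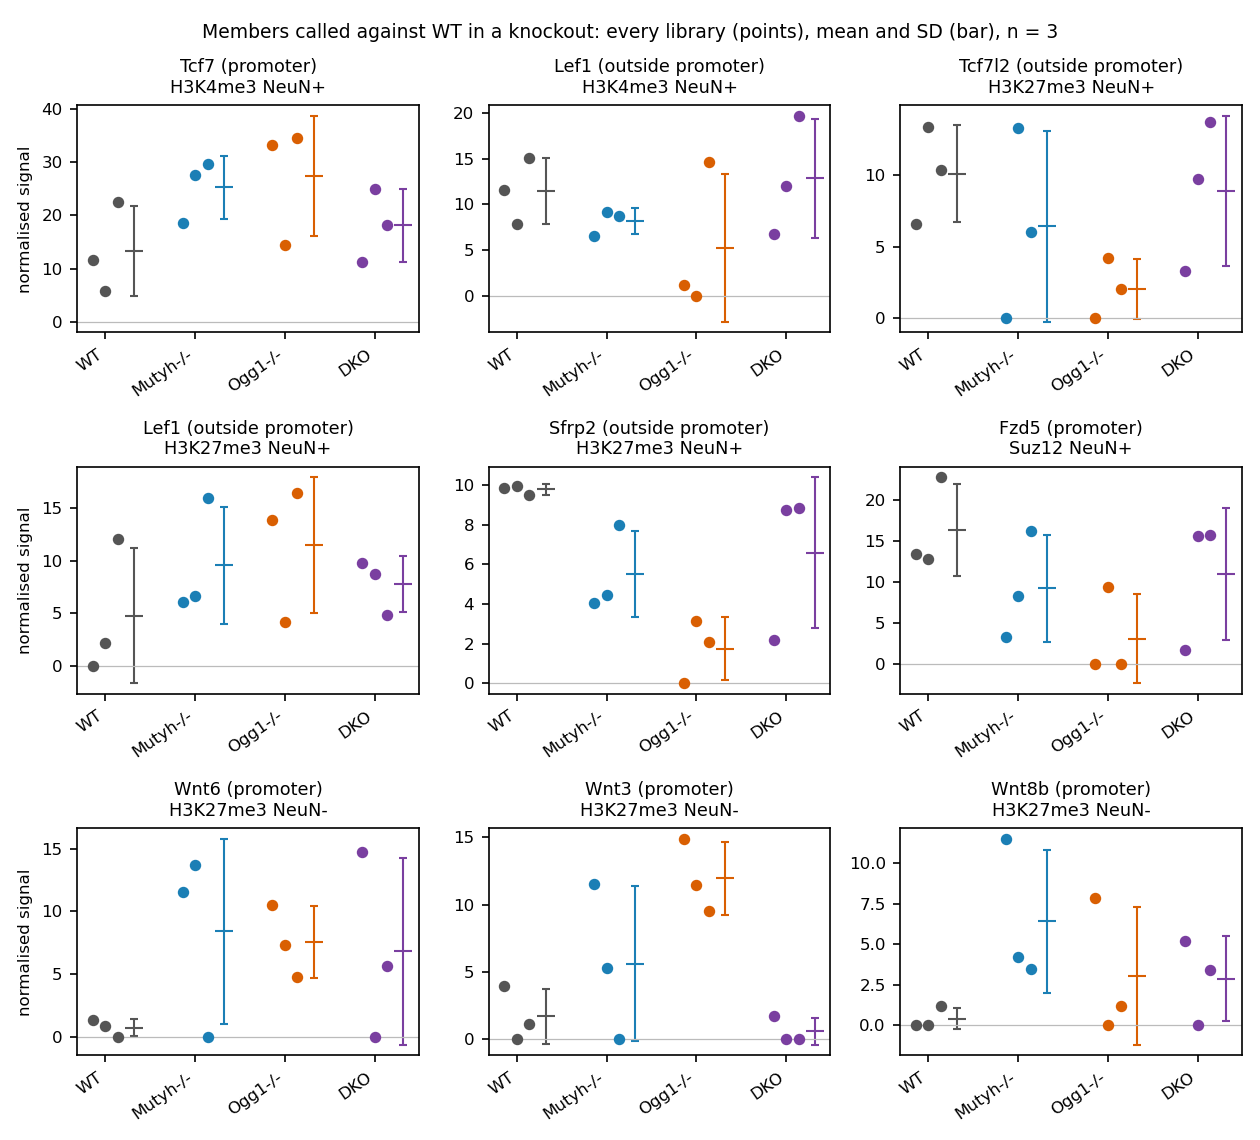
Normalised signal (y axis) in every library by genotype (x axis) for 9 of the member DERs, with the mean and SD as a bar (n = 3). Sfrp2, Tcf7l2 and Fzd5 are lower and Wnt3 and Wnt6 higher in all 3 Ogg1-/- libraries than in any WT library, and Tcf7 and both Lef1 peaks overlap WT.

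Whether the DKO effect departs from the sum of the single knockouts was tested as a contrast of its own. In limma 0 of the 134 member peaks had an adjusted p under 0.05 for this contrast, while 7 (5.22%) passed the DER thresholds, against 2.04% of all peaks. With an adjusted p the share of all peaks was 0.0968% for H3K27me3 NeuN+ and 0% for each of H3K4me3 NeuN+, Suz12 NeuN+, H3K4me3 NeuN-, H3K27me3 NeuN- and Suz12 NeuN-. The smallest p among the members was that of the Axin2 distal window in H3K4me3 NeuN-, at -1.96 ± 0.49 (SE; limma, adjusted p = 0.218). Among promoter peaks, Wnt3 is the example from NeuN-, with -4.15 ± 1.64 (SE; limma, adjusted p = 1.00), where the DKO libraries were at WT level and both single knockouts above it on average. Lef1 is the example from NeuN+, where Suz12 at chr3:131111027-131111427 was 13.4, 21.8 and 30.9 in WT, 0, 15.5 and 10.1 in Mutyh-/-, 0, 17.7 and 7.52 in Ogg1-/- and 16.1, 20.9 and 33.9 in DKO, at 4.06 ± 1.52 (SE; limma, adjusted p = 0.627). The median of all peaks for this contrast was itself 1.09 in Suz12 NeuN+. The edgeR quasi-likelihood test and DESeq2 also gave 0 member peaks.

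Whether a knockout acted differently in the 2 fractions could be tested where windows overlapped one to one. That gave 12 member pairs for H3K4me3, 5 for H3K27me3 and 1 for Suz12, and 0 of them had an adjusted p under 0.05 in limma, as for 0% of all 3000, 0% of all 249 and 0% of all 172 pairs. One had an unadjusted p under 0.05: H3K27me3 at Wnt6 for Ogg1-/-, with a difference of -3.57 ± 1.40 (SE, log2) for NeuN+ minus NeuN- (limma, adjusted p = 0.953). In NeuN+ that promoter had 5.48, 6.64 and 4.31 in WT and a mean of 2.36 ± 2.12 (SD, n = 3) in Ogg1-/-. In NeuN- it had 1, 1 and 0 WT reads, so this difference is partly fixed by how the peaks were chosen. The study collected both fractions from the same sorting, and the fit behind these tests held no term for a shared pool.

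Among the peaks of the cell type markers 1 of 16 was a DER in H3K4me3 NeuN+ (Gad1, lower), against 2.93% of all peaks, and 1 of 10 in H3K27me3 NeuN+ (Prox1, lower), against 9.39%. It was 0 of 3 in Suz12 NeuN+, against 9.55%, and 0 of 1 in H3K4me3 NeuN-, against 6.42%. In H3K27me3 NeuN- it was 3 of 19 (2 at Rbfox3 and 1 at Cldn5, all higher), against 7.01%. Fewer nuclei of a type and less signal per nucleus cannot be told apart in a pooled fraction. The part of a change in the makeup of the fractions in the results above was not tested.

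A list of 68 other genes of the pathway, such as R-spondins, Lgr receptors, Tle co-repressors and casein kinases, gave 131 peaks at 60 genes. Their promoters carried H3K4me3 in 56 genes in NeuN+ and in 19 in NeuN-, H3K27me3 in 8 genes in each fraction, and Suz12 in 4 in NeuN+ and 0 in NeuN-. H3K4me3 in NeuN+ met H3K27me3 in NeuN- at 6 of them (Celsr1, Celsr3, Lgr5, Nkd2, Notum and Ror2), 10.7% of 56 and 75% of 8. In all, 7 of the 131 peaks were DERs. In H3K4me3 NeuN+ it was 1 (Apc2, lower in Ogg1-/-), or 1.41% against 2.93% of all peaks. In H3K27me3 NeuN+ there were 4 (at Nkd1, Rspo4 and Wif1, all lower), or 16.7% against 9.39%, and in H3K4me3 NeuN- 2 (Csnk1d and Myc, 1 higher and 1 lower), or 10.5% against 6.42%. The other 3 tables had 0. In limma 0 of them had an adjusted p under 0.05.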

How the data were processed

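Chromatin of NeuN+ and NeuN- hippocampal nuclei was immunoprecipitated for H3K4me3, H3K27me3 and Suz12 in 4 genotypes with 3 libraries each, and the 24 input samples, which the tables do not list by column, were not analysed here. The authors aligned reads to GRCm38 (mm10) with Bowtie2 2.3.5.1, called broad peaks with epic2 (the submitters' processing notes list SICER), kept peaks found in at least 2 of 3 replicates and counted them with DiffBind 3.10.1, with 1 set of peaks for all genotypes of a table. Peaks were annotated with ChIPseeker 1.36. The deposited values are normalised signal, reads in a peak divided by a library factor, and were whole multiples of 1 read's worth in every library (tolerance 0.0001), so whole reads were recovered. Nearly all windows were 401 bp wide, as were all 134 member peaks.

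Each table of 12 libraries was fitted with limma 3.58.1 (R 4.3.3), trend on, on log2(value + 1) with genotype as the term, and p-values were adjusted by Benjamini-Hochberg over all peaks of the table. Fold changes on this scale understate the change of low peaks. The prior degrees of freedom were 24.9 and 58.3 for H3K4me3 in NeuN+ and NeuN- and without limit in the other 4 tables, against 8 residual ones. All peaks deposited were kept. Alternatives were other pseudocounts, filters and scalings, robust empirical Bayes, a replicate block, leaving out libraries, and edgeR 4.0.16 and DESeq2 1.42.0 on the recovered reads. The scripts were tested on simulated data. The labels do not say whether replicates came from separate animals, so p-values measure the spread between these pooled samples. Counting intervals cover counting error only, since reads carry no molecular identifiers.

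Members, gene lists and tests were chosen with earlier results of these data known. Peaks named were those with an adjusted p under 0.05, up to 3 DERs per table with the smallest p (in a table without one, the peak with the smallest p), the promoter peaks with the highest and lowest WT mean of a table, and genes with an active and a PRC2 mark in one fraction. Other peaks serve as examples of a group.

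A correlation over 0.1 in every pair of same-numbered samples was taken as the rule for pairing. It was met for Mutyh-/- in Suz12 NeuN+ (0.388, 0.186 and 0.119) and missed in 17 of the 18 comparisons with WT. Missing it does not show that samples were unpaired. Ogg1-/- in Suz12 NeuN+ had 0.285, 0.226 and 0.0714, and DKO in H3K27me3 NeuN- had 0.153, 0.121 and 0.0416. The main fit held no replicate term.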

Additional observations from a re-analysis of the deposited data

How the results depend on the processing

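The H3K27me3 promoter peaks in NeuN- had a median of 9 WT reads over 3 libraries, which limits their precision. Counts of genes with a promoter peak do not depend on a fit. The number of member DERs moved as follows, and the cause was not tested unless the setting itself removes peaks. Shares of all peaks called under these settings are not given here. A move of the members can therefore not be told from a move of the whole table. For H3K4me3 NeuN+ it went from 3 to 5 with TMM scaling, 6 with cyclic loess and 1 among promoter peaks only, and to 1 to 4 with a library left out. For H3K27me3 NeuN+ it went from 4 to 2 with robust empirical Bayes and 0 among promoter peaks, and to 2 to 5 with a library left out. For Suz12 NeuN+ it went from 1 to 2 with a pseudocount of 5, 3 with cyclic loess or DESeq2, 0 with edgeR under TMM or the deposited factors and 0 outside promoters, and to 0 to 4 with a library left out. For H3K4me3 NeuN- it went from 1 to 2 with TMM, cyclic loess, edgeR with TMM or DESeq2 and 0 among promoter peaks, and to 1 to 2 with a library left out. For H3K27me3 NeuN- it went from 3 to 5 with TMM or DESeq2 and 0 outside promoters, and to 1 to 4 with a library left out. The 1 peak with an adjusted p became 0 with a pseudocount of 5, repeat-masked peaks left out, cyclic loess, robust empirical Bayes, both edgeR settings and DESeq2, and 0 to 1 with a library left out. The 6 other pathway genes called became 12 with TMM, and 4 to 9 with a library left out.

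The replicate block was fitted in all tables, although the rule for pairing was met only for Mutyh-/- in Suz12 NeuN+. The share of all peaks called with the block is not given here either. With the block, the member DERs were 6 in Suz12 NeuN+, 2 in H3K4me3 NeuN- and 6 in H3K27me3 NeuN-, the other pathway genes were 10, and the non-additive peaks went from 0 to 1, the Axin2 distal window in H3K4me3 NeuN-. That count was also 1 with WT replicate 1 or DKO replicate 1 of H3K4me3 NeuN- left out, an alternative chosen after seeing the data, and so ranged from 0 to 1. The count of peaks whose effect differed between fractions was 0 under every alternative run.

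Of 501 alternatives over 21 named peaks, 409 kept direction and side of the threshold, 69 lost the call, 15 gained one and 8 reversed a value that was not called. Wnt2 H3K4me3 in NeuN+ for DKO (-0.67) became 0.22 without DKO replicate 1 (range -1.23 to 0.22). Dvl1 H3K4me3 in NeuN- for Ogg1-/- (0.17) became -0.035 with TMM, -0.036 with cyclic loess, -0.085 with edgeR and TMM and -0.12 with DESeq2, and ran from -0.081 to 0.39 with a library left out. The Axin2 window for Suz12 in NeuN- and Mutyh-/- (0.38) became -0.036 with DESeq2 and ran from -0.22 to 0.99.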
